A study of Mus musculus with 9 samples.

Results

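The mRNA of MyC-CaP cells after 12 h with ASPN was compared with that of the same line at time 0, in 3 libraries a side, which are 6 of the 9 MyC-CaP libraries used here. All 15384 protein-coding genes of the gene count table were considered, and 11410 of them had enough counts to be tested. MyC-CaP is an androgen-responsive prostate cancer line from a mouse whose prostate epithelium carries a MYC transgene under a probasin promoter, so all libraries come from 1 line. ASPN (asporin) is a small leucine-rich proteoglycan that fibroblasts secrete, and the study asked how it acts on prostate cancer cells.

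The time 0 group and the ASPN 12 h group were both plated in wells and then kept without serum and without calcium for 6 to 12 h, before 100 ng/mL recombinant ASPN was added. The labels call the time 0 libraries ASPN-treated as well, with a time of 0 hours. The labels number the libraries of each group as biological replicates, and the wells were of 1 line, so the tests measure the spread between wells. No library of cells kept for 12 h with buffer alone was used here, so the effect of ASPN and that of 12 more hours in starvation medium cannot be told apart. These are bulk libraries, in which a change in the share of cells that express a gene and a change in mRNA per cell cannot be told apart either.

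Many of the genes described here are known targets of NF-kB, a family of dimeric transcription factors held in the cytoplasm by IkB proteins. Receptors of the TNF, Toll-like and interleukin-1 families activate IkB kinases, the IkB proteins are degraded, and the dimers enter the nucleus and bind kappaB sites. Their targets include chemokines, adhesion molecules and the IkB proteins and deubiquitinases that shut the pathway down again.

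The 6 libraries held 41881191 to 51356250 counts, and 3 counts corresponded to 0.0551 to 0.0686 CPM (counts scaled to a common library size with TMM factors). On the first principal component, which held 62.4% of the variance of the 500 most variable genes, the libraries of each group lay together and apart from those of the other group. The line was checked against prostate epithelial markers. Foxa1 had 9324 to 12801 counts a library, Hoxb13 3129 to 3703, Grhl2 2788 to 3311 and Krt8 1162 to 1351. The epithelial genes Epcam, Cdh1 and Esrp1 were at 0 to 3 counts in each of these 6 libraries and Krt18 at 2 to 15, so the label of epithelial-like cells rests on part of the marker list. Of 14 macrophage and leukocyte markers, 8 were in the table, with 33 to 53 counts in all per time 0 library and 53 to 69 per 12 h library. Csf1r, Itgam, Itgax, Cd3e and Lyz2 had 3 counts or fewer in each library. Of 10 endothelial markers 7 were in the table, with 22 to 31 and 17 to 40 counts in all, and of 12 fibroblast markers 8 were, with 687 to 753 and 596 to 619 counts in all, most of them from Pdgfra. Aspn itself had 0 to 4 counts a library.

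The regions just before the start of several of the genes that rose hold the kappaB consensus, the 10-base motif bound by NF-kB dimers. The genes shown were picked because they hold it. The following windows are taken from the RefSeq promoter sequences on GRCm38.p6 and run 5′ to 3′ on the strand of the gene. They lie upstream of the annotated start, and capitals mark the bases that match the consensus on either strand, overlapping matches joined. The first set shows ligands, that is chemokines and Csf1.
Cxcl1, chr5:90891149-90891208, plus strand, capitals start 71 bases before the annotated start: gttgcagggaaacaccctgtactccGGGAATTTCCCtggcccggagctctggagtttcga
Cxcl2, chr5:90903777-90903836, plus strand, capitals start 97 bases before the annotated start: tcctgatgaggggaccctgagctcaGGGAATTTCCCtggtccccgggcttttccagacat
Cxcl3, chr5:90786003-90786062, plus strand, capitals start 73 bases before the annotated start: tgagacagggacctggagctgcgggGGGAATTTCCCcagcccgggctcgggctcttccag
Cxcl10, chr5:92348959-92349018, minus strand, capitals start 104 bases before the annotated start: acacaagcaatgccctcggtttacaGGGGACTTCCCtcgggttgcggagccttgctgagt
Csf1, chr3:107760589-107760648, minus strand, capitals start 154 bases before the annotated start: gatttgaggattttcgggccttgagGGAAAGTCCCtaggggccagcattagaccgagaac
The capitals were the same in Cxcl1, Cxcl2 and Cxcl3, while the bases around them differed. The second set shows inhibitors of NF-kB, a subunit and a receptor.
Nfkbia, chr12:55492648-55492701, minus strand, capitals start 29 bases before the annotated start: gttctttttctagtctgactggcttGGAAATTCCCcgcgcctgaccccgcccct
Nfkbie, chr17:45555569-45555628, plus strand, capitals start 106 bases before the annotated start: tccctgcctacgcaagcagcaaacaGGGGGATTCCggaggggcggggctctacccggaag
Tnip1, chr11:54962964-54963023, minus strand, capitals start 58 bases before the annotated start: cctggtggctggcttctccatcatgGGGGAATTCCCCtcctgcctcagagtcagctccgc
Rel, chr11:23771027-23771086, minus strand, capitals start 92 bases before the annotated start: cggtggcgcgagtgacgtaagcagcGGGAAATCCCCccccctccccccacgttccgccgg
Tlr2, chr3:83841747-83841806, minus strand, capitals start 173 bases before the annotated start: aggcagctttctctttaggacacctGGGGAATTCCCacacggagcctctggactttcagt

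Promoter sequences were found for 128 of the 171 genes called higher at 12 h (the call is defined below), with 167 windows of 250 bases before to 50 bases after a start. The kappaB consensus occurred in 25.1% of these windows, against 10.3% of the windows of all tested genes and 8.46% of all 32851 windows in the RefSeq table. Among genes that were at least 4-fold higher it occurred in 16 of 33 windows (48.5%), and among called genes that were less than 2-fold higher in 9 of 74 (12.2%). None of the 8 windows found for the genes called lower held it. The AP-1 motif TGANTCA, searched on both strands, occurred in 8.38% of the windows of genes called higher, 5.14% of those of tested genes and 7.81% of all windows. The base composition of the windows was not matched, overlapping windows of 1 gene were counted separately, and a match is a run of letters and not evidence of binding. Cxcl5, Nos2, Vcam1, Csf3, Nfkbiz and Relb had no entry in the promoter table. Tnf, Saa3, Zc3h12a, Icam1, Micall2, Tnfsf10 and Lcn2, which also rose strongly, had an entry without the kappaB consensus.

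A gene was called when its p from the quasi-likelihood test of edgeR, adjusted by Benjamini-Hochberg over all tested genes, was at most 0.05 and its fold change at least 1.5. By this rule 182 of 11410 tested genes were called (1.6%), of which 171 were higher (1.5%) and 11 lower (0.0964%) at 12 h than at time 0. Of the 171, 100 were at least 2-fold, 36 at least 4-fold and 9 at least 16-fold higher, whereas 2 of the 11 were at least 2-fold lower. The median log2 fold change was 1.16 for genes called higher, −0.68 for genes called lower and 0.00 for all tested genes, and 96.94% of tested genes were within 1.5-fold of time 0.

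Adjusted p alone was met by 782 genes that were higher (6.85%) and 396 that were lower (3.47%). Of the 996 of these that changed by less than 1.5-fold, 61.35% were higher, against 93.96% of the called genes. In 1532 tested genes all 12 h libraries lay above all time 0 libraries (13.4%), and in 1554 below (13.6%). The groups did not overlap for the 171 genes called higher and for 10 of the 11 called lower. The typical precision depended on the counts. The median SE of the log2 fold change was 0.35 for 1040 genes with a mean under 50 counts and 0.03 for 1881 genes with a mean over 5000 counts, and the smallest called change in the first set was 0.82.

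**Figure D1:**
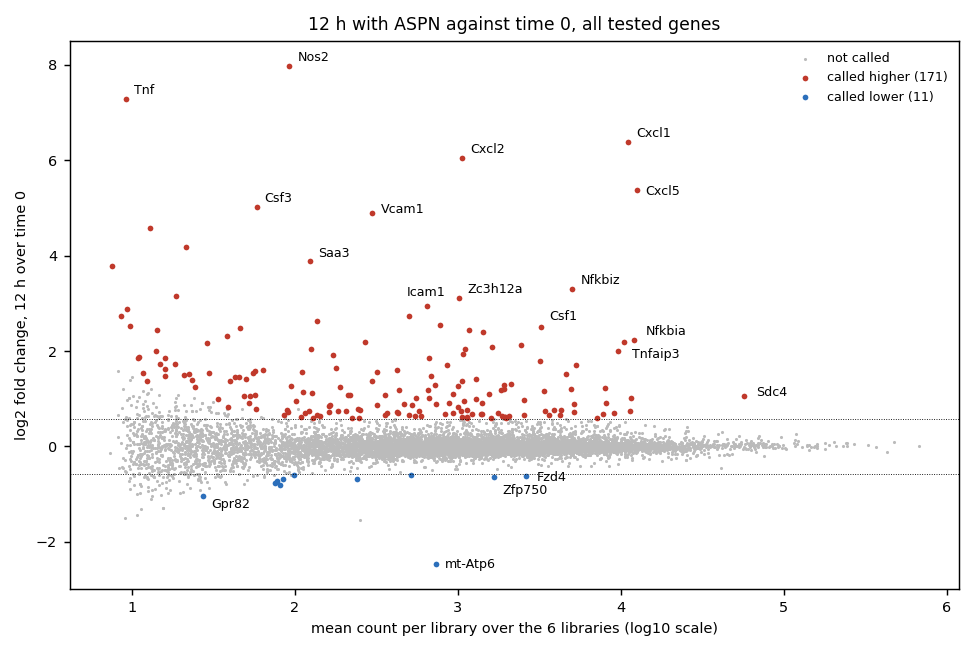
Log2 fold change of 12 h over time 0 (vertical axis) against the mean count per library over the 6 libraries (horizontal axis, log10 scale) for 11410 tested genes, with dotted lines at 1.5-fold. Genes called higher (171, red) reach from low to high counts, and the 11 genes called lower (blue) lie near the lower line except Gpr82 and mt-Atp6, and the latter's time 0 value rests on 1 library.

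Among the 12 h libraries, replicate 2 had the highest CPM for 132 of the 171 genes called higher (77.2%), compared with 34.9% of all tested genes. Without it 144 genes were called higher and 4 lower. It also had the highest total count of the 12 h libraries, 44766173, and what set it apart was not tested. Of the 182 called genes, 133 were called with each library left out in turn.

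Chemokines that recruit neutrophils rose. Among 13 tested chemokine ligands 6 were called higher and none lower, where 1.5% of all tested genes were called higher, and their median log2 fold change was 0.60, against 0.00 for all tested genes. Cxcl1, a ligand of the receptor CXCR2, was at 5.28, 7.33 and 4.79 CPM at time 0 and at 457, 542 and 444 CPM at 12 h. Each 12 h library was far above each time 0 library, and Cxcl1 was 83.8-fold higher (log2 fold change 6.39 ± 0.10 SE, adjusted p = 9.8e-17).

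Cxcl5, another CXCR2 ligand, was at 11.1, 15.1 and 13.1 CPM at time 0 and at 483, 670 and 471 CPM at 12 h (5.38 ± 0.13 on the log2 scale, adjusted p = 1.2e-14). Cxcl2, of the same group, rose from 0.872, 0.686 and 0.532 CPM to 41, 54.6 and 42.1 CPM (6.05 ± 0.15, adjusted p = 1.8e-14). Cxcl3 was scarcer, at 0, 4 and 3 counts at time 0 and 30, 57 and 34 counts at 12 h. Per kilobase of exon, Cxcl5 (291 RPKM, reads scaled to exon length and library size) and Cxcl1 (257 RPKM) were more abundant at 12 h than Cxcl2 (22.2 RPKM), and Cxcl3 was at 0.254 RPKM. These 4 genes lie on chromosome 5 of GRCm38, each within 250 kb of another of them, Cxcl5 at chr5:90759360-90761624, Cxcl3 at chr5:90786103-90789600, Cxcl1 at chr5:90891241-90893115 and Cxcl2 at chr5:90903871-90905938. They are related in sequence, and how reads shared between them were counted was not stated.

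Of the other called chemokines of the list, Cxcl10, an interferon-induced ligand of CXCR3 on T cells, was at 0.165 to 0.429 CPM at time 0 and 1.24 to 1.51 CPM at 12 h (2.33 ± 0.30, adjusted p = 4.4e-05). Cx3cl1, a membrane-bound chemokine, was 0.60 ± 0.13 higher on the log2 scale (adjusted p = 5.2e-03), and was not called without replicate 3 of time 0 or without replicate 2 at 12 h. Ccl5 had 33 to 57 counts at time 0 and 51 to 66 at 12 h (adjusted p = 0.20), and Ccl2 with 0 to 2 and 7 to 14 counts was not tested. Ccl20 had 0 or 1 count in each library. Ccl9, a chemokine gene outside the list, was at 0.748 to 0.815 CPM and at 1.60 to 1.70 CPM (1.07 ± 0.20, adjusted p = 1.4e-03).

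**Figure D2:**
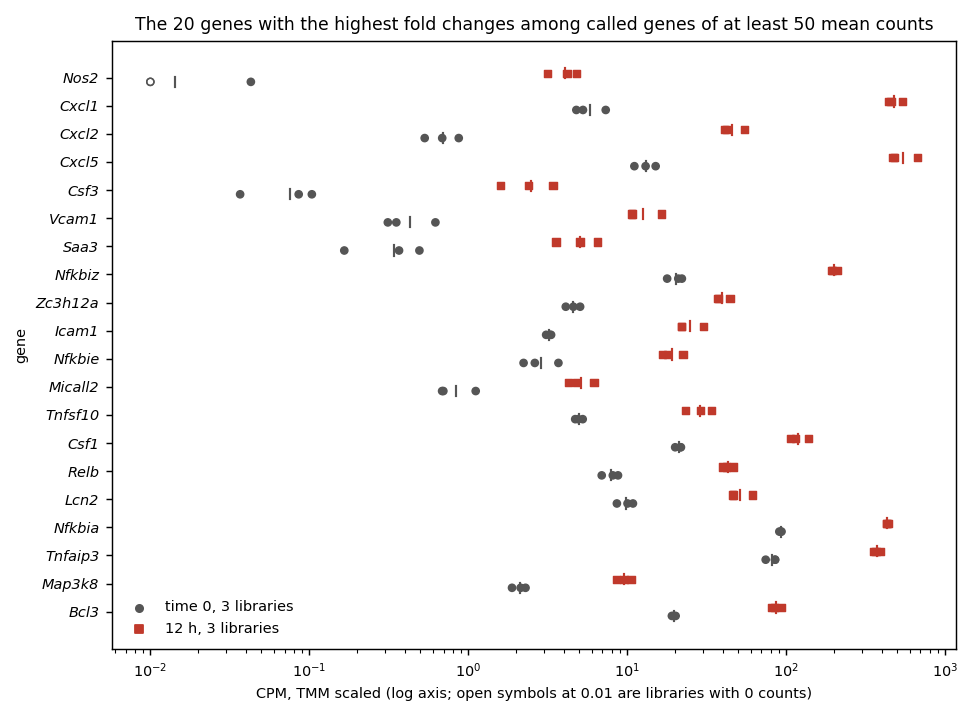
CPM in each of the 3 time 0 libraries (gray circles) and the 3 libraries at 12 h (red squares) on a log axis, with the group mean as a vertical tick, for the 20 called genes with the highest fold change among those with a mean of at least 50 counts. No time 0 library reaches a 12 h library in any of the 20 genes, and the gap is widest for Nos2 and Cxcl1.

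Colony-stimulating factors rose as well. Of 9 tested genes in the list of colony-stimulating factors and interleukins 3 were called higher and none lower (median log2 fold change 0.44). Csf3, the granulocyte colony-stimulating factor, had 5, 4 and 2 counts at time 0 and 73, 159 and 105 counts at 12 h (5.02 ± 0.41, adjusted p = 1.7e-07). Csf1, the macrophage colony-stimulating factor, was at 20.1, 21.8 and 21.6 CPM and at 114, 138 and 107 CPM, with no overlap (2.50 ± 0.07, adjusted p = 2.9e-13). Lif, a cytokine of the interleukin-6 family, rose from 9.16, 9.91 and 9.71 CPM to 34, 39.8 and 36.6 CPM (1.94 ± 0.07, adjusted p = 1.8e-12). Il6 itself had 1 count in all over these 6 libraries, and Il1a 0 to 3 counts a library.

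The list of IkB proteins and NF-kB feedback inhibitors, which also holds genes of nuclear IkB proteins such as Nfkbiz and Bcl3, had the highest median. Of 11 tested IkB proteins and feedback inhibitors 7 were called higher, against 1.5% of all tested genes. None was called lower, and the median log2 fold change was 2.04. Nfkbia, which encodes IkB-alpha, was at 92.7, 93.7 and 90.7 CPM at time 0 and at 432, 442 and 427 CPM at 12 h. The libraries of each group lay close together and the groups far apart, and the increase was 4.71-fold (2.23 ± 0.03, adjusted p = 4.3e-17). Nfkbiz, which encodes the nuclear co-activator IkB-zeta, rose from 17.9, 22.1 and 21 CPM to 194, 209 and 195 CPM (3.30 ± 0.06, adjusted p = 1.9e-16).

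Nfkbie, which encodes IkB-epsilon, was at 3.7, 2.23 and 2.63 CPM and at 16.7, 22.5 and 17.9 CPM (2.74 ± 0.15, adjusted p = 8.0e-10). Tnfaip3, the gene of the ubiquitin-editing enzyme A20, rose from 85.4, 85.2 and 74.5 CPM to 358, 393 and 368 CPM (2.20 ± 0.05, adjusted p = 9.2e-15). Bcl3, a nuclear IkB protein that binds p50 and p52 dimers, went from 19.1, 20.2 and 19.7 CPM to 81.2, 92.8 and 84.7 CPM (2.14 ± 0.05, adjusted p = 1.2e-14). Nfkbid was 2.04 ± 0.18 higher and Tnip1, a partner of A20, 0.91 ± 0.06 higher, while the deubiquitinase gene Cyld passed the adjusted p at a change of 0.36.

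All 5 genes of NF-kB subunits passed the adjusted p as higher, and 3 were called higher. Of all tested genes 6.85% passed it as higher and 1.5% were called higher. Relb, the subunit of the alternative pathway, was at 8.76, 8.13 and 6.92 CPM at time 0 and at 42.2, 46.8 and 40.2 CPM at 12 h (2.45 ± 0.08, adjusted p = 6.9e-13). Nfkb2, its partner's gene, was at 63.4 to 65.6 CPM and at 142 to 161 CPM (1.21 ± 0.04, adjusted p = 5.1e-12), and Rel was 1.02 ± 0.08 higher. Rela (0.38 ± 0.04) and Nfkb1 (0.57 ± 0.04) stayed below 1.5-fold. Nfkb2 shares 6.52% of its exon length with Psd on the other strand, and Psd was also called higher, by 1.11 on the log2 scale. Whether reads were counted by strand is not given in the sources used here, so reads of such pairs may not have been told apart.

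Of 13 tested IkB kinases and upstream kinases 3 were called higher, against 1.5% of all tested genes, and the list's median was 0.00. Map3k8, which encodes the kinase TPL2 that links NF-kB1 to ERK, rose from 2.14, 1.89 and 2.29 CPM to 8.62, 9.56 and 10.6 CPM (2.18 ± 0.12, adjusted p = 1.2e-09). Ikbke (0.68 ± 0.08) and Ripk2, the kinase below NOD receptors (0.66 ± 0.09), were the other two. Without replicate 2 of the 12 h libraries Ripk2 was at 0.58 and no longer called.

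Of 8 tested mRNA decay factors that target inflammatory transcripts 2 were called higher, against 1.5% of all tested genes. All 8 had a positive log2 fold change (median 0.45, against −0.005 for all tested genes). Zc3h12a, which encodes the ribonuclease Regnase-1, was at 4.11, 5.06 and 4.59 CPM and at 37, 44.5 and 37.5 CPM (3.12 ± 0.09, adjusted p = 1.1e-13). Zfp36l1 was 0.59 ± 0.05 higher, but 55.9% of its exon length overlaps a long noncoding RNA gene on the other strand. Zfp36l1 was called in 9 of 13 alternative fits, and not without replicate 2 or 3 of time 0 or replicate 2 of the 12 h libraries. Zfp36, which encodes tristetraprolin, reached 0.52 and Dusp1, a MAP kinase phosphatase, 0.47, both with an adjusted p under the threshold and a fold change under 1.5.

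Receptors and ligands of the TNF family were higher in part. Of 17 tested genes 5 were called higher, against 1.5% of all tested genes, and none lower. Their median was 0.37, which does not depend on the value given to Tnf. Tnf had 0 counts in each time 0 library and 20, 11 and 24 counts at 12 h (adjusted p = 3.4e-04). With 3 counts as the floor for each time 0 library it was at least 6.66-fold higher. Tnfsf10, which encodes the death ligand TRAIL, rose from 4.71, 5.25 and 4.92 CPM to 29, 33.9 and 23.2 CPM (2.54 ± 0.12, adjusted p = 8.6e-11). Fas, the receptor of Fas ligand, was called at a low level, 0 to 0.107 CPM at time 0 and 0.258 to 0.481 CPM at 12 h (2.53 ± 0.62, adjusted p = 0.012), and its adjusted p was 0.079 without replicate 1 of the 12 h libraries. Its log2 fold change ran from 1.99 without replicate 1 of time 0 to 3.13 without replicate 2 of time 0. Traf1, an adaptor of TNF receptors, and Tnfrsf9, which encodes the receptor 4-1BB, were 1.85 ± 0.45 and 1.26 ± 0.08 higher, and Traf1 was not called without replicate 1 or without replicate 2 of the 12 h libraries.

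In the Toll-like and interleukin-1 receptor pathway 3 of 18 tested genes were called higher, against 1.5% of all tested genes, and the median was 0.08. By adjusted p alone 6 were higher and 1 lower, against 6.85% and 3.47% of all tested genes. Tlr2, the receptor of bacterial lipopeptides, had 0, 3 and 0 counts at time 0 and 14, 45 and 15 counts at 12 h. The ratio of the summed counts per library total was 26.8, with an exact 95% interval of 8.82 to 133 that covers counting error only. The fitted log2 fold change of Tlr2 was 4.59 ± 0.83, 7.70 without replicate 2 of time 0, which held all 3 time 0 counts, and 3.85 without replicate 2 of the 12 h libraries. Il1rl1, the interleukin-33 receptor gene, was 1.55 ± 0.33 higher, and Cd14, the co-receptor for lipopolysaccharide, rose from 8.43 to 8.93 CPM to 17.6 to 21.6 CPM (1.18 ± 0.08, adjusted p = 2.5e-08). Myd88, the shared adaptor, passed the adjusted p with 0.34.

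Nos2, the inducible nitric oxide synthase, was close to absent at time 0, with 0, 2 and 0 counts, and had 145, 222 and 183 counts at 12 h. The ratio of the summed counts per library total was 299, with an exact 95% interval of 82.3 to 2473 for counting error. In the edgeR fit its log2 fold change was 7.98 ± 0.43 (adjusted p = 9.6e-10), a value that depends on the prior count. It was 10.59 without replicate 2 of time 0, which held both time 0 counts, and 7.41 to 8.13 with any other single library left out. Gch1, which makes the cofactor of nitric oxide synthases, was 0.61 ± 0.11 higher, but was not called without replicate 1 of time 0 or without replicate 3 at 12 h. The other 6 tested enzymes of nitric oxide, itaconate and superoxide metabolism were not called. The list's median was −0.05.

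Adhesion molecules that bind leukocyte integrins rose. Vcam1 had 17, 29 and 17 counts at time 0 and 495, 769 and 466 counts at 12 h, a 29.9-fold difference (4.90 ± 0.23, adjusted p = 1.3e-10). Icam1 was at 3.09, 3.32 and 3.27 CPM and at 22, 30.4 and 22 CPM (2.94 ± 0.12, adjusted p = 2.6e-11), with 11.7% of its exon length shared with an antisense gene. Both were highest in replicate 2 of the 12 h libraries, and the groups did not overlap. The other 4 tested genes of the list were not called, among them Cd44 (0.38) and Cd47 (0.45), which passed the adjusted p.

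Acute-phase and antimicrobial genes were called higher in 5 of 11 cases (median 0.35), against 1.5% of all tested genes. Saa3, an acute-phase serum amyloid, had 8, 23 and 20 counts at time 0 and 231, 303 and 156 counts at 12 h (3.88 ± 0.28, adjusted p = 4.7e-08). Lcn2, the iron-binding lipocalin that withholds siderophores from bacteria, rose from 10.9, 8.62 and 10.1 CPM to 47, 61.8 and 46.2 CPM (2.39 ± 0.10, adjusted p = 3.7e-11). C3, the central complement component, went from 10.1, 9.72 and 8.43 CPM to 37.5, 42.5 and 35.4 CPM (2.04 ± 0.08, adjusted p = 8.2e-12). Hp, which encodes haptoglobin, was 1.86 ± 0.13 higher and the protease inhibitor gene Slpi 0.68 ± 0.07 higher.

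**Figure D3:**
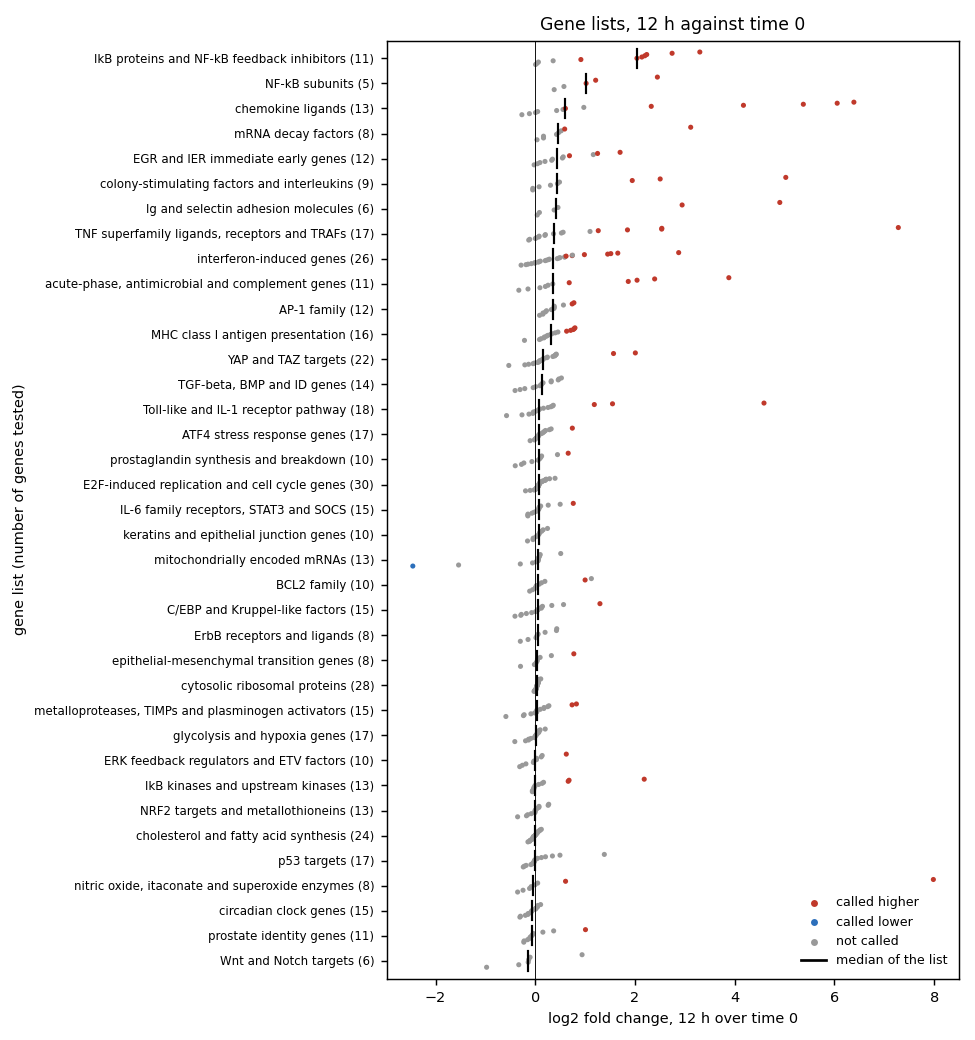
Log2 fold change of 12 h over time 0 for the tested members of each gene list (points; red called higher, blue called lower, gray not called), with the list median as a black bar and the number of tested genes in parentheses. The IkB proteins and feedback inhibitors have the highest median (2.04), and most lists of growth, metabolism and identity genes have medians near 0.

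In 15 of 16 tested genes of MHC class I presentation all 12 h libraries lay above all time 0 libraries, compared with 13.4% of all tested genes. Of the 16, 5 were called higher (median 0.32), against 1.5% of all tested genes. Tap1, a subunit of the peptide transporter, was at 3.47, 3.95 and 4 CPM at time 0 and at 7, 6.52 and 6.24 CPM at 12 h (0.79 ± 0.11, adjusted p = 6.2e-05). Psmb8 (0.76 ± 0.12), Tap2 (0.71 ± 0.08) and Psmb10 (0.63 ± 0.05) were also called, and Psmb8, Psmb9 and Psmb10 encode the catalytic subunits of the immunoproteasome. Psmb10 was not called without replicate 2 of the 12 h libraries. Psmb9 (0.78 ± 0.23, adjusted p = 0.035) overlaps Tap1 on the other strand, and it was called in 6 of 13 alternative fits. H2-K1, a classical class I heavy chain gene, passed the adjusted p at 0.33.

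Of 26 tested interferon-induced genes 7 were called higher, against 1.5% of all tested genes, and the median was 0.36. Irf1, a transcription factor gene induced by both interferon-gamma and NF-kB, was at 51.2, 52.7 and 51.1 CPM and at 145, 150 and 146 CPM (1.51 ± 0.03, adjusted p = 8.1e-15). The guanylate-binding protein genes Gbp2 (1.65 ± 0.17), Gbp3 (1.45 ± 0.24) and Gbp5 (2.88 ± 0.65), which lie within 250 kb of each other on chromosome 3 and resemble each other in sequence, were called, Gbp5 at 0 to 0.104 CPM before and 0.263 to 0.43 CPM after. The log2 fold change of Gbp5 was 4.02 without replicate 1 of time 0 and 2.25 without replicate 3 of time 0, and its adjusted p reached 0.0499 with single libraries left out. Ddx58, the gene of the RNA sensor RIG-I, was 0.62 ± 0.06 higher. Cd74, the MHC class II invariant chain and a leukocyte marker, had 11 to 16 counts at time 0 and 27 to 38 at 12 h (1.40 ± 0.31, adjusted p = 6.6e-03). Of the 8 leukocyte markers measured, 5 had 3 counts or fewer in each library and the others had more. Which cells gave the Cd74 counts was not tested. The adjusted p of Cd74 was 0.051 without replicate 2 of the 12 h libraries.

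Of 15 tested genes of IL-6 family receptors, STAT3 and SOCS proteins 1 was called, where 1.6% of all tested genes were. This was Il6st, which encodes the shared gp130 chain of interleukin-6 family receptors. It was at 64.7, 58.8 and 61.3 CPM and at 105, 111 and 96.1 CPM (0.76 ± 0.05, adjusted p = 1.1e-08). Ptgs2, the inducible cyclooxygenase, was at 40.9, 42.5 and 43.3 CPM and at 66.3, 67.9 and 65.3 CPM (0.66 ± 0.04, adjusted p = 2.3e-09). Ptgs1, the constitutive form, passed the adjusted p in the other direction with −0.28.

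All 12 tested genes of the AP-1 family had a positive log2 fold change (median 0.35), 9 passed the adjusted p and 2 were called, where 6.85% of all tested genes passed it as higher and 1.5% were called higher. Atf3 was at 18.3, 18.2 and 17.2 CPM and at 28.5, 31.1 and 32.1 CPM (0.77 ± 0.06), and Junb at 190, 180 and 177 CPM and at 297, 296 and 316 CPM (0.74 ± 0.04). Fos (0.38), Jun (0.20) and Fosl1 (0.56) stayed below 1.5-fold.

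Of 12 tested EGR and IER genes 3 were called higher (median 0.44), against 1.5% of all tested genes. Ier3, an early response gene linked to survival, rose from 57, 53.1 and 52.3 CPM to 165, 178 and 183 CPM (1.70 ± 0.04, adjusted p = 4.2e-14), and Ier5 was 0.68 ± 0.05 higher. Egr2 was called at 0.187 to 0.472 CPM against 0.549 to 0.941 CPM (adjusted p = 0.033) and was called in 5 of 13 alternative fits. Egr1 (0.56) and Myc (0.19) passed the adjusted p below 1.5-fold.

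Among 22 tested targets of the co-activators YAP and TAZ 2 were called higher and 11 passed the adjusted p as higher (median 0.16), against 1.5% and 6.85% of all tested genes. Ccn1, a secreted matricellular protein, rose from 81, 86.2 and 81.5 CPM to 310, 380 and 307 CPM (2.01 ± 0.06, adjusted p = 6.1e-13). Ankrd1 was at 3.23 to 3.9 CPM and at 10.2 to 10.4 CPM (1.57 ± 0.10). Ccn2, also a classical target, was 0.41 higher and passed the adjusted p.

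Sdc4, which encodes the cell surface proteoglycan syndecan-4, had the largest difference per kilobase of exon among the called genes, from 314 to 646 RPKM on average. It was at 816, 777 and 802 CPM at time 0 and at 1567, 1769 and 1604 CPM at 12 h (1.05 ± 0.04, adjusted p = 1.8e-11). Micall2, a junctional protein gene, was at 0.685 to 1.11 CPM and at 4.3 to 6.2 CPM (2.63 ± 0.20, adjusted p = 6.7e-08). Cebpd, a transcription factor gene of the acute-phase response, was 1.30 ± 0.05 higher, with 15% of its exon length shared with Spidr on the other strand.

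A few members were called in lists whose medians were near 0. Bid, which encodes a pro-apoptotic BH3 protein, was 1.00 ± 0.08 higher (17.7% of its exon length is shared with Bcl2l13), Nupr1, a stress-induced chromatin protein gene, 0.74 ± 0.07, and Itgb6, an epithelial integrin subunit gene, 0.77 ± 0.17. The protease genes Adam8 (0.74 ± 0.14) and Adamts4 (0.82 ± 0.25) were called, Adamts4 under 4 of 13 alternatives. Phlda1 was 0.62 ± 0.06 higher among the ERK feedback genes, with 33% of its exon length shared with a noncoding RNA gene, and was not called without replicate 3 of the 12 h libraries.

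The study centers on the ErbB receptors HER2 and HER3, and the mRNA of their genes was measured here. The paper judged receptor activation by protein phosphorylation over a time course. It also reported enrichment of ERBB2 and MEK signatures at 12 h in this line and a human one. Levels of mRNA do not measure phosphorylation, and those signatures were not examined here. Erbb2 had 8672 to 10045 counts at time 0 and 8456 to 9100 at 12 h (0.06 ± 0.03, adjusted p = 0.37), and Erbb3 3372 to 4115 and 3298 to 3773 counts (0.03 ± 0.05, adjusted p = 0.77). None of 8 tested ErbB receptors and ligands was called, where 1.6% of all tested genes were. Hbegf, a ligand of EGFR, passed the adjusted p at 0.42 and Egfr at −0.15. Dusp6, an ERK feedback gene, changed by 0.02 ± 0.03 (adjusted p = 0.77). Of 10 tested ERK feedback regulators and ETV factors 1 was called, where 1.6% of all tested genes were.

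Foxa1, a pioneer factor of the prostate, differed by −0.15 ± 0.03 (adjusted p = 5.0e-03), and 1 of 11 tested prostate identity genes was called. This was Steap4, a metalloreductase gene, at 165, 162 and 163 CPM and at 315, 369 and 295 CPM (1.01 ± 0.06, adjusted p = 1.8e-09). With 1.6% of all tested genes called, a list of this size holds few calls or none at the overall share. Of 30 tested replication and cell cycle genes none was called, 27 had a positive log2 fold change (23 without TMM scaling) and the median was 0.07. None was called among 17 p53 targets, 24 genes of cholesterol and fatty acid synthesis, 13 NRF2 targets and metallothioneins, 17 gene identifiers of the glycolysis and hypoxia list (16 symbols, 1 of them with several identifiers), 15 circadian clock genes, 14 genes of the TGF-beta, BMP and ID families, 6 Wnt and Notch targets, 10 keratin and junction genes and 28 ribosomal protein genes. At adjusted p alone these lists held 1 to 8 genes each except the ribosomal protein genes, which held none, and in the TGF-beta list Tgfb1 was 0.52 higher and Tgfb3 0.41 lower on the log2 scale.

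The genes called lower were few and changed little. Zfp750, which encodes a zinc finger factor of epithelial differentiation, was at 44.4, 39.2 and 42.9 CPM at time 0 and at 27.5, 27.7 and 25.2 CPM at 12 h (−0.65 ± 0.05, adjusted p = 2.7e-07), and was the only one of the 11 called in all 13 alternative fits. Fzd4, a Wnt receptor gene, fell from 69, 67.1 and 61.4 CPM to 40.9, 42.4 and 45.2 CPM (−0.62 ± 0.05, adjusted p = 1.4e-07). For both genes the 12 h libraries lay below the time 0 libraries, and Fzd4 was not called without replicate 1 of time 0 or without replicate 1 at 12 h.

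Tmem158 was at 12.7 to 13.3 CPM and at 8.09 to 8.95 CPM (−0.61 ± 0.08), and was not called without replicate 2 of the 12 h libraries. Apart from mt-Atp6, the others were near or below 7 CPM, among them Angptl7 (−0.68 ± 0.15), the tissue inhibitor of metalloproteases Timp4 (−0.73 ± 0.19), the co-repressor Tle2 (−0.77 ± 0.20), the steroid-converting enzyme Akr1c18 (−0.67 ± 0.18) and the tight junction protein Cldn2 (−0.60 ± 0.16). Gper1, a G protein-coupled estrogen receptor gene, was at 1.51 to 2.53 CPM and at 0.941 to 1.42 CPM (−0.80 ± 0.23), and the orphan receptor gene Gpr82 at 0.644 to 0.922 CPM and at 0.32 to 0.416 CPM (−1.05 ± 0.30). Cldn2, Gper1 and Gpr82 were called in 5 to 7 of 13 alternative fits, and Angptl7, Timp4, Tle2 and Akr1c18 in 8 to 11.

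The mitochondrial gene mt-Atp6 had 200, 188 and 3441 counts at time 0 and 224, 186 and 185 counts at 12 h, so its call as lower rested on replicate 3 of time 0. Without that library its log2 fold change was 0.10. mt-Co3 was likewise uneven, with 124, 855 and 150 counts at time 0 against 114 to 127 at 12 h (adjusted p = 0.089), while mt-Co1 (0.09 ± 0.04) and mt-Cytb (0.06 ± 0.05) varied little.

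**Figure D4:**
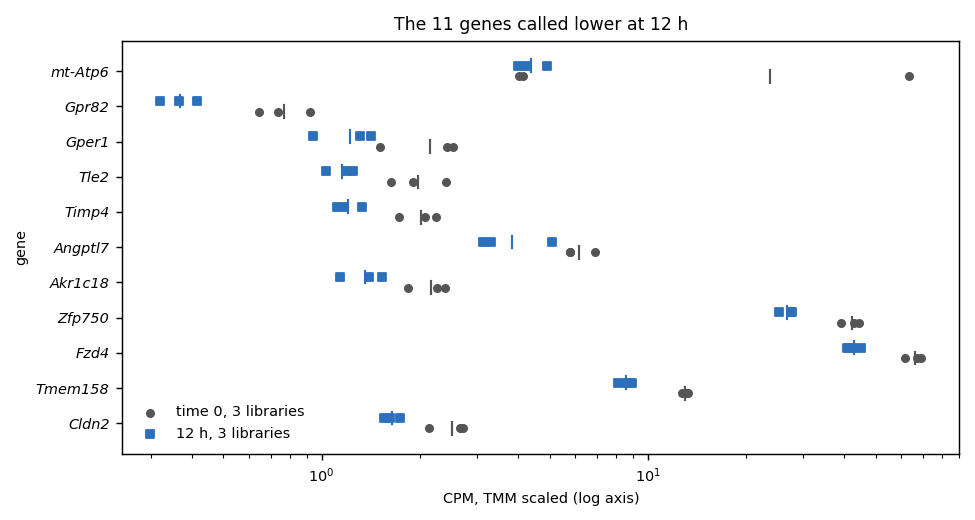
CPM in each of the 3 time 0 libraries (gray circles) and the 3 libraries at 12 h (blue squares) on a log axis, with the group mean as a vertical tick, for the 11 genes called lower. The groups are apart for all but mt-Atp6, of which 1 time 0 library lies far above the others.

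Of the genes called higher, 38 had another one within 250 kb. Besides the Cxcl and Gbp genes these included Psmb9, Tap1, Psmb8 and Tap2 on chromosome 17, Icam1 with Icam5 and S1pr2 and the pair Plscr1 and Plscr2 on chromosome 9, Relb with Bcl3 on chromosome 7, Il1rl1 with Il18rap on chromosome 1, and Slpi with Sdc4 on chromosome 2. The pair Gm10722 and Gm10715 are near-identical copies, and their counts are uncertain. Such neighbors were not counted for other sets of tested genes, so the 38 have no background share.

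The levels of these genes differed in what followed between 12 h and 24 h with ASPN, a comparison that shares the 12 h libraries with the one above. Between these times 1184 of 11394 tested genes were called higher (10.4%) and 1740 lower (15.3%). Saa3 was at 53 ± 1.7 CPM (SD, n = 3) at 24 h, 3.41 higher than at 12 h on the log2 scale. Ptgs2 reached 438 ± 20 CPM (2.74 higher than at 12 h), Lcn2 207 ± 16 CPM (2.02 higher) and C3 117 ± 6.8 CPM (1.62 higher). For each of these the 24 h value was above that at 12 h by more than the spread between libraries.

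Other genes were lower again at 24 h. Irf1 was at 53.3 ± 5 CPM, 1.44 lower than at 12 h on the log2 scale and near its time 0 values. Tnfsf10 was at 7.33 ± 0.36 CPM (1.94 lower than at 12 h), Nfkbiz at 64 ± 4.1 CPM (1.62 lower), Steap4 at 113 ± 11 CPM (1.51 lower, and under time 0), and Csf1 at 53.9 ± 8.7 CPM (1.13 lower). Tlr2 was down to 0.0707 ± 0.05 CPM. Relb, Nfkb2, Icam1 and Cxcl1 were not called between 12 h and 24 h, with differences of 0.03 ± 0.08, 0.02 ± 0.06, −0.11 ± 0.12 and −0.11 ± 0.07 (± SE) on the log2 scale. Of the genes called lower at 12 h, Zfp750 went down further to 5.86 ± 0.62 CPM and Fzd4 to 21.4 ± 0.16 CPM.

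**Figure D5:**
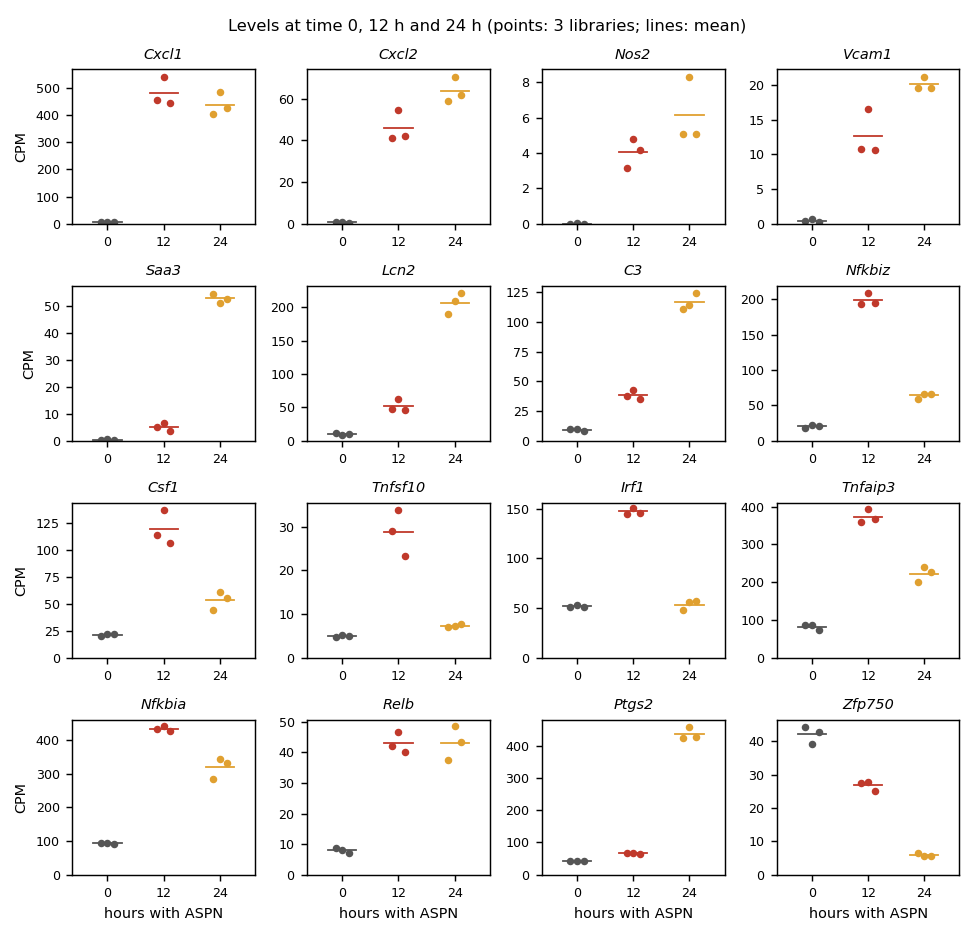
CPM at 0, 12 and 24 h with ASPN for 16 genes, with the 3 libraries of each time as points and their mean as a line, each panel on its own linear axis from 0. Saa3, Lcn2, C3 and Ptgs2 are highest at 24 h, Nfkbiz, Csf1, Tnfsf10, Irf1, Tnfaip3 and Nfkbia are highest at 12 h, and Zfp750 is highest at time 0.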

How the data were processed

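Gene counts of paired-end RNA-Seq libraries of MyC-CaP cells were used, 3 at time 0 and 3 after 12 h with ASPN, with 3 at 24 h for context. The authors trimmed reads with cutadapt, aligned them with STAR to GRCm38.p6 and counted them per gene of GENCODE M24 with featureCounts, and deposited whole-number counts of protein-coding genes. Strand setting and treatment of shared reads are not given in the sources used here.

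The 6 libraries were fitted without covariates in edgeR 4.0.16 (R 4.3.3), after its filterByExpr function had set the genes to test and TMM the library scaling, and p from the quasi-likelihood test were adjusted by Benjamini-Hochberg. CPM are scaled by TMM over 9 libraries. RPKM used exon lengths of GENCODE M21, in which 15374 of 15384 identifiers were found. Promoter windows came from RefSeq. A few items are not reported here. The study used DESeq2, tried here as an alternative (1.42.0) with other scalings, filters, thresholds and left-out libraries. No library pair of a group agreed within sampling noise. The calculations were tested on simulated data. Same-numbered libraries were checked for pairing and did not deviate together.

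The gene lists and the genes described were chosen with earlier results of these data known. Named genes were the 20 highest fold changes at a mean of at least 50 counts, all called lower, up to 3 called members a list, the 10 largest RPKM differences among called genes and called genes with at most 3 counts in every time 0 library and a mean of at least 20 at 12 h. Further list members and neighbors were named after their values were seen.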

Additional observations from a re-analysis of the deposited data

How the results depend on the processing

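More genes were called higher than lower under each setting tried. With single libraries left out, 148 to 198 genes were called, 144 to 183 of them higher and 4 to 15 lower, the lowest counts without replicate 2 of the 12 h libraries and the highest without replicate 1 of time 0. With each of 13 alternative fits 118 genes stayed called, 117 of them higher. The number of genes called lower was 18 without a filter on low counts, 5 with all 9 libraries in 1 fit and 7 with DESeq2's Wald test, and the cause was not tested. Adjusted p alone gave 1178 genes (782 higher and 396 lower), and a fold of at least 2 gave 102 (100 higher and 2 lower), by construction of the threshold. The log2 fold change of mt-Atp6 ran from −2.95 without replicate 1 of time 0 to 0.10 without replicate 3 of time 0, where it reversed. With at least 10 counts in every library, Nos2, Tnf, Csf3, Tlr2, Cxcl3 and Saa3 were not tested, since 1 or more of their time 0 libraries had fewer than 10 counts.

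The deviations of same-numbered libraries had a mean correlation of −0.02, so no shared deviation was seen. This does not tell how the wells were laid out or handled. A replicate block in the model left 172 called genes, 164 higher and 8 lower.

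Depth limits statements about genes with few counts at time 0, and at a mean under 50 counts changes under 0.82 on the log2 scale were not called.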

Other observations

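Of the 171 genes called higher, 100 were in none of the gene lists, and the following were picked from them after their values were seen. Some genes of ETS transcription factors were among them. Elf3 was at 13.4, 12.5 and 13.8 CPM at time 0 and at 50.7, 65.7 and 52.4 CPM at 12 h (log2 fold change 2.09 ± 0.08 SE, adjusted p = 1.4e-11), Ehf was 1.55 ± 0.18 higher and Ets2 0.60 ± 0.03 higher, the last not called without replicate 3 of time 0. Mucin genes were called too. Muc4, a membrane mucin, was at 1.62 to 2.1 CPM and at 2.43 to 3.04 CPM (0.62 ± 0.16, adjusted p = 0.019), and was not called without replicate 3 of time 0 or without replicate 2 or 3 at 12 h. The secreted mucin gene Muc5ac had 3 counts in all at time 0 and 42 at 12 h, a ratio of 15.2 per library total with an exact 95% counting interval of 4.86 to 76.7.

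Some genes of secreted vascular factors were called as well. Edn1, which encodes the vasoconstrictor endothelin-1, rose from 30.6, 30.3 and 31 CPM to 102, 113 and 104 CPM (1.80 ± 0.04, adjusted p = 1.2e-14), Pdgfb was 1.36 ± 0.10 higher and Angptl4 0.65 ± 0.04 higher. Receptor genes that sense cytokines of leukocytes were also called, among them Ifngr2 (1.91 ± 0.15), a chain of the interferon-gamma receptor, Il18rap (1.99 ± 0.40) and Il15ra (0.60 ± 0.14, not called without replicate 3 of time 0 or without replicate 2 at 12 h). The metal and sugar transporter genes Slc11a2 (1.19 ± 0.06), Slc39a4 (2.16 ± 0.31) and Slc2a6 (1.59 ± 0.11) were higher, as were the MAP kinase phosphatase genes Dusp8 (1.37 ± 0.06) and Dusp10 (0.86 ± 0.08) and Casp4, the gene of a caspase that senses lipopolysaccharide (3.15 ± 0.54, adjusted p = 6.6e-04, with 3.85 without replicate 2 and 2.64 without replicate 3 of time 0). In each of these genes the 3 libraries at 12 h lay above the 3 at time 0.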
